A study of Drosophila melanogaster with 837 samples.

Results

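Hemocyte-like cells made up 24.5% (exact 95% interval 21.5 to 27.6) of the cells that passed the cell filter in a sort of embryonic muscle cells. They numbered 7 to 21 on each of 15 plates. They were chosen by their reads: a kept cell, with at least 500 genes at 10 or more reads each, was a member when it had 10 or more reads of both Pxn and Ppn and fewer than 100 reads of Mhc, the muscle myosin gene that the sorting label follows. All other kept cells served as the comparison. All cells of the series came from a pool of dissociated 19 to 20 h old Drosophila embryos of the Mhc-TAU-GFP stock, were sorted as GFP-positive, DAPI-negative and DRAQ5-positive, and were processed as full-length cDNA by Smart-seq2 with added Hox primers. Every cell, member or not, therefore carries the same transgene and was collected at the same age. The label was meant for somatic muscle, and the labels tie no cell to an embryo or culture, so all cells form 1 sample. Cells and plates are not biological replicates. Intervals therefore cover counting error only, and no p-value is given for any difference.

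Hemocytes are the blood cells of insects. In the Drosophila embryo most of them are macrophages (plasmatocytes), which arise from the head mesoderm, migrate through the body, engulf dying cells and microbes through receptors of the Nimrod, scavenger receptor and Draper families, and lay down a large part of the basement membrane, the sheet of type IV collagen, laminin and associated proteins around the organs. A minority become crystal cells, which store the prophenoloxidases used in melanization. Pxn encodes peroxidasin, a peroxidase of the extracellular matrix, and Ppn encodes papilin, a large matrix glycoprotein. Both are used as hemocyte markers.

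Few members lay near the edges of the rule. Pxn had 10 reads in each of the lowest 2 members, 18, 34 and 48 in the next 3, and 12402 in the highest, and its level had a median of 1738 CPM. Ppn had a median of 4193 reads and a highest value of 42757. Mhc had 1 to 9 reads in 19 members and 10 or more in 5, with 21 as the highest value, and no read in all others. Outside the rule, 4 kept cells had both genes and 100 or more Mhc reads, and 6 kept cells had Pxn alone. Ppn alone was found in 26 kept cells (at most 9628 reads), of which 12 had fewer than 100 Mhc reads. Of the 64 kept cells with 100 or more Mhc reads, 18 had 10 or more reads of Ppn. Of the 4 cells with all 3 genes, 1 had 1755 reads of Pxn and 17430 of Ppn, and another had 12 reads of Pxn, 27 of Ppn and 2085 of Mhc. A further 4 cells with both genes fell below the cell filter.

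Members were present on all 15 plates, from 15.4% of the kept cells on plate 6 (8 of 52) to 38.5% on plate 10 (20 of 52). Members had a median of 490532 reads outside the ribosomal RNA (rRNA) features and other kept cells 367316. The median number of genes with 10 reads was 1688 in members and 1605 in other cells, and rRNA features took a median of 34.8% of the reads in members and 34.4% in other cells. For 3 narrower comparisons, other kept cells were set apart by marker genes: 64 cells with 100 or more Mhc reads (contractile set), cells with 10 reads of both fat-body genes apolpp and FASN1 (fat-body set) and 86 cells with 10 reads of the progenitor gene esg (esg set). Levels are CPM, each gene's reads scaled to a common total of reads outside rRNA features. The log2 ratio is log2 of (mean CPM in members + 1) over (mean CPM in other kept cells + 1), and a gene is called higher at 1 or above, lower at -1 or below, and detected in a cell at 10 or more reads.

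The hemocyte label was set beside the 3 given markers that the rule had not used. These markers came with the label and were chosen with earlier results of these data known. Their shares describe the members and are not an independent test of the label. NimC1 (chromosome 2L, 13973158 to 13976769), a Nimrod receptor for the phagocytosis of bacteria, had CPM values from 0 to 3549 with a median of 135.5 in members, against 0 to 1357 with a median of 0 in other cells. It reached 10 reads in 64.1% of members (interval 57 to 70.8) and in 1 other cell. He (2L, 13972096 to 13972947), the hemocyte surface protein Hemese, was detected in 60.1% of members (interval 52.9 to 67) and in 8 other cells, with CPM values from 0 to 2782 in members. srp, the GATA factor that specifies both hemocytes and fat body, was detected in 95.5% of members and 60.7% of other cells, of which the fat-body set reached 89.5%. After each cell was thinned to 106282 reads, 75.7% of members (interval 68.8 to 81.7) and 1.10% of other cells (6 cells, interval 0.407 to 2.39) had 10 reads of at least 2 of these 3 markers. In the fat-body set the count was 0 cells, for which the interval reached 1.38%.

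The markers were not complete in every member. Before thinning, 78 members had all 3 markers, 86 had 2, 29 had 1 and 5 had none. The 34 members with fewer than 2 were found on all 15 plates and had a median of 140014 reads outside rRNA features and 1007.5 detected genes, below the medians of all members. Their median level of the collagen gene Col4a1 was 72660 CPM, against 72446 CPM in the other members, and their median of Pxn was 1471 CPM, against 1831 CPM.

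**Figure D1:**
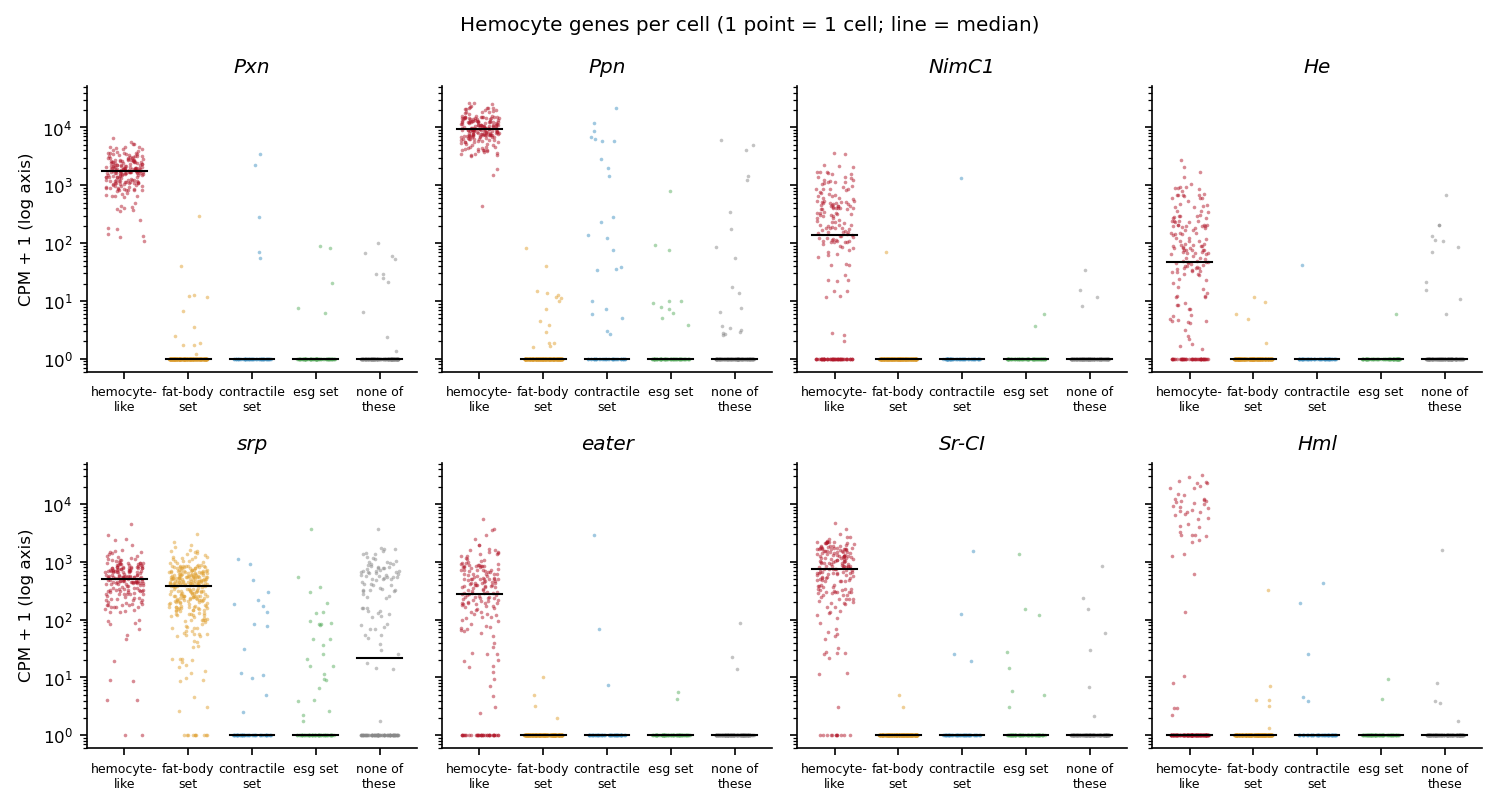
CPM + 1 per cell on a log axis for 8 hemocyte genes, with 1 point per kept cell and a line at the median, in hemocyte-like cells, the fat-body set, the contractile set, the esg set and the kept cells in none of these. Pxn and Ppn chose the members. NimC1, eater and Sr-CI reached 10 reads in 64.1%, 75.8% and 90.9% of members and in 1, 5 and 9 other cells, srp had medians of 505.9 CPM in members and 375.7 CPM in the fat-body set, and Hml was at 10 or more reads in 44 members.

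Of 8817 genes compared, 6.95% were called higher in members and 41.2% (3630 genes) were called lower. Counts over gene lists below are to be read beside these shares. The median log2 ratio over all genes compared was -0.69, so that a gene at this value stood at the middle of the distribution. A median of 33.8% of a member's reads outside rRNA features fell on its 10 highest genes, against 17.3% in other kept cells. CPM is a share of each cell's reads, and the part of this concentration in the low median was not tested. Among the 995 genes with 10 reads in at least 50% of members the median was 0.22. These genes were chosen by detection in members alone, which favours higher ratios. Their median therefore cannot be set against that of all genes. The log2 ratio was negative on every plate for 1118 of the 3630 lower genes.

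Among genes detected in at least 50% of members and positive on every plate, and apart from Pxn and Ppn, which the rule used, the largest log2 ratios were those of CG43799 (log2 ratio 7.91), jtb (7.23), NimC1 (6.71), the scavenger receptor Sr-CI (6.70), the lipophorin receptor LpR2 (6.54), CG34437 (6.46), the phagocytosis receptor eater (6.25), the nicotinic receptor subunit nAChRbeta3 (6.23), CG6310 (6.08) and the beta-galactosidase gene Gal (6.06). CG43799 was detected in 88.9% of members and 2 other cells, and jtb in 97.5% of members and 13 other cells. nAChRbeta3 was detected in 96% of members (median 1313 CPM) and in 20 other cells (median 0 CPM). The gene belongs to a receptor family best known from synapses. LpR2, which takes up lipoprotein particles, had a median of 1576 CPM in members and 0 CPM in other cells. Ance-5, of the angiotensin-converting enzyme family, had a median of 6738 CPM in members and 0 CPM in other cells (99.5% and 30.4% of cells), and the lipocalin gene Karl had a median of 1613 CPM in members and 0 CPM in other cells. The insulin-like peptide gene Ilp4 (log2 ratio 5.14) was detected in 61.6% of members and 2.45% of other cells, and C1GalTA (5.02), a galactosyltransferase of mucin-type glycans, in 78.3% and 4.42%. The rank correlations with the mean of Pxn and Ppn over all kept cells, which largely restate membership since these genes chose the members, were highest for CG43799 (Spearman's rho 0.84), nAChRbeta3 (0.83), jtb (0.82), Sr-CI (0.82) and CG7120 (0.80). These points share plates and depth, and members and other cells form separate groups in them.

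**Figure D2:**
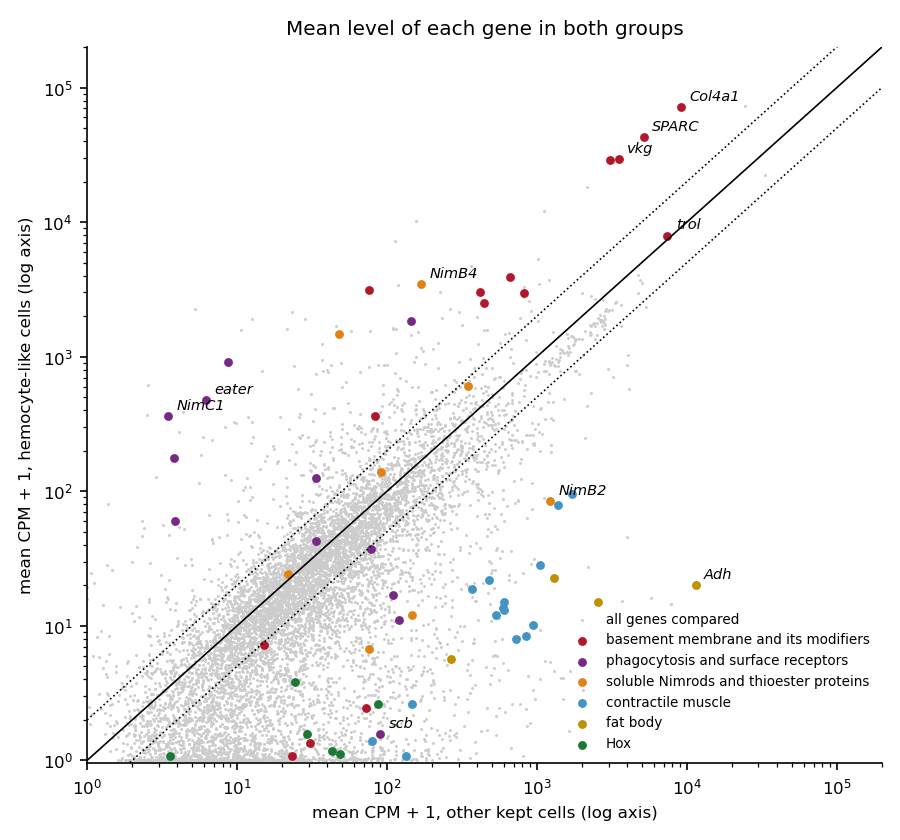
Mean CPM + 1 of each gene compared, in hemocyte-like cells (vertical) and other kept cells (horizontal), both on log axes, with the line of equality and dotted lines at a factor of 2. Of the basement membrane genes (red) 10 of 15, and of the receptors (purple) 7 of 12, lie above the upper dotted line, while contractile (blue), fat-body (gold) and Hox (green) genes lie below the lower one.

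The genes with the lowest log2 ratios were detected more often in the fat-body set than in members. Adh, alcohol dehydrogenase, had a log2 ratio of -9.14 and was detected in 6.57% of members and 59.2% of other cells. The immune-induced peptide genes IMPPP (-9.95) and IM33 (-8.67), the odorant-binding protein gene Obp83cd (-8.88), and CG33470, CG34166, CG14275 and Elal (-9.24 to -8.50) were each detected in at most 6.06% of members. CG31775 and CG42586 had identical reads in every kept cell, so their shared value of -9.09 cannot be given to either gene. In the fat-body set, IM33 was detected in 98.6% of cells, Obp83cd in 90.2%, and the lowest of these shares was that of IMPPP, at 43.7%.

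The list of hemocyte regulators, which also holds the clotting gene Hml, had 5 of 10 genes compared higher in members and 1 lower, with a median log2 ratio of 1.07. The higher genes were zfh1, ush, Pvr, lz (1.20, detected in 6 members) and Hml. zfh1, a zinc finger homeodomain factor of mesoderm derivatives, had a median of 910 CPM in members and 18.8 CPM in other cells (log2 ratio 2.49), and its plate means in members, 680 to 1789 CPM, all lay above those in other cells, 80.3 to 357.2 CPM. srp, the factor at the top of the hemocyte program, had a median of 505.9 CPM in members and 148.1 CPM in other cells, and its log2 ratio of 0.95 was just under the threshold. The srp ratio was past it on CPM of all reads (1.07), on TPM (1.28), after thinning (1.02), with plates weighted equally (1.001) and against the contractile set alone (3.32), and was 0.46 against the fat-body set alone. Its GATA cofactor ush had a log2 ratio of 1.77 (detected in 63.6% of members and 19.3% of other cells). Pvr, the PDGF and VEGF receptor required for hemocyte survival and migration, had a log2 ratio of 1.41 (74.7% and 41.9%). Both were higher on 14 of 15 plates. The JAK/STAT genes dome (-0.20), hop (0.35) and Stat92E (0.19) lay between the thresholds. The lamellocyte and lymph gland regulator kn was detected in 1 member and had a log2 ratio of -5.63. The regulators gcm and gcm2, which act early in the embryonic lineage, were read from the cell files and reached 10 reads in 0 members, for which the interval reached 1.85%.

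Of the phagocytosis and surface receptors, 7 of 12 compared were higher in members and 4 lower (median log2 ratio 2.79). drpr encodes Draper, the receptor for dying cells, and had a median of 1729 CPM in members and 0 CPM in other cells. It was detected in 96.5% of members and 38.5% of other cells (log2 ratio 3.66), and its plate means were 1065 to 2753 CPM in members and 45.8 to 299.3 CPM in other cells. Sr-CI had a median of 758.5 CPM in members and 0 CPM in other cells (90.9% of members and 9 other cells with 10 reads). eater, a receptor for bacteria, ranged from 0 to 5505 CPM in members with a median of 274.6, and was detected in 75.8% of members (interval 69.2 to 81.6) and 5 other cells. Sr-CIII was detected in 32.8% of members and 1.64% of other cells (log2 ratio 3.95), and the peptidoglycan receptor gene PGRP-LC in 52.5% and 16.9% (1.91).

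Not every engulfment receptor followed this pattern. crq (croquemort), the CD36-family receptor known from embryonic macrophages, was detected in 24.2% of members and 11.9% of other cells, with a log2 ratio of 0.35. Its median was 0 CPM in both groups. The related gene pes had a log2 ratio of -1.07. scb and Itgbn, integrin subunits that together act in phagocytosis, had log2 ratios of -5.86 and -3.45. The gene scb reached 10 reads in 1 member and 19.5% of other cells, of which the esg set showed it in 68.6% of cells. Dscam1 was at -2.68. The sign turned for Itgbn against the contractile set alone (0.17) and for Dscam1 against the fat-body set alone (0.68). Read from the cell files, NimC4, the receptor also called simu, reached 10 reads in 3 members (1.52%, interval 0.314 to 4.36) and 1 other cell, Sr-CIV in 4 members and 3 other cells, NimC2 in 1 member, and NimA, NimC3 and Sr-CII in no member.

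**Figure D3:**
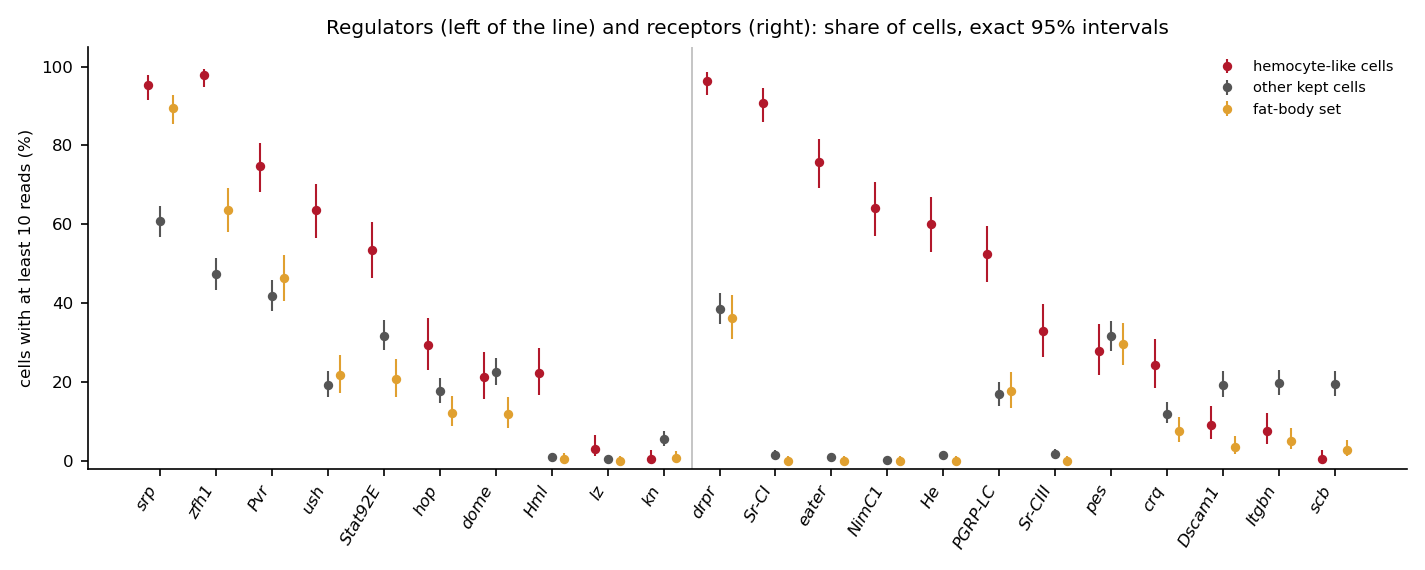
Share of cells (%) with at least 10 reads of each hemocyte regulator (left of the line) and receptor (right of it), with exact 95% intervals, in hemocyte-like cells (red), all other kept cells (grey) and the fat-body set (gold). Sr-CI, eater and NimC1 were detected in 64.1% to 90.9% of members and in at most 1.47% of other cells, whereas srp was shared with the fat-body set and scb, Itgbn and Dscam1 had lower shares in members than in other cells.

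The secreted relatives of the Nimrod receptors were split. NimB4 had a median of 3234 CPM in members and 0 CPM in other cells (log2 ratio 4.36, detected in 98% and 35.8%), and NimB5 had a median of 1367 CPM in members and 0 CPM in other cells (4.96, 93.4% and 23.2%). NimB2 was the reverse, with a median of 0 CPM in members and 150.5 CPM in other cells (-3.87), and was detected in 89.5% of the fat-body set. NimB3 was at -3.61, but at 1.85 against the contractile set alone, and NimB1 was at 0.61. These genes are neighbours on chromosome 2L. From left to right, NimB1 (13963507 to 13965088), NimB2 (13965012 to 13967018), NimB3 (13967464 to 13967985), NimB4 (13968280 to 13969976), NimB5 (13970177 to 13972173), He and NimC1 lie with no other Nimrod gene between them, so the lower and the higher genes of members formed adjoining blocks. NimB1 overlaps NimB2, and NimB5 overlaps He, at their ends on opposite strands, and reads of an unstranded library from the overlaps cannot be told apart. Of the thioester proteins, Tep4 had a log2 ratio of 0.79 (79.3% of members and 52.7% of other cells), Tep2 -3.49 and the related Mcr 0.14.

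Basement membrane genes took a median of 20.1% of the reads outside rRNA features in members (range 2.30 to 36.2) and 2.58% in other cells (range 0.0908 to 28.4). The plate medians were 15.7% to 23.8% in members and 0.929% to 5.23% in other cells and did not overlap. In the fat-body set the median was 4.90%, in the contractile set 0.982% and in the esg set 0.504%. Of 15 genes compared, 10 were higher in members and 4 lower (median log2 ratio 2.50). The rule itself used matrix genes, Pxn and Ppn, which are not among the 15. How far that choice raised the matrix share of members was not tested.

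**Figure D4:**
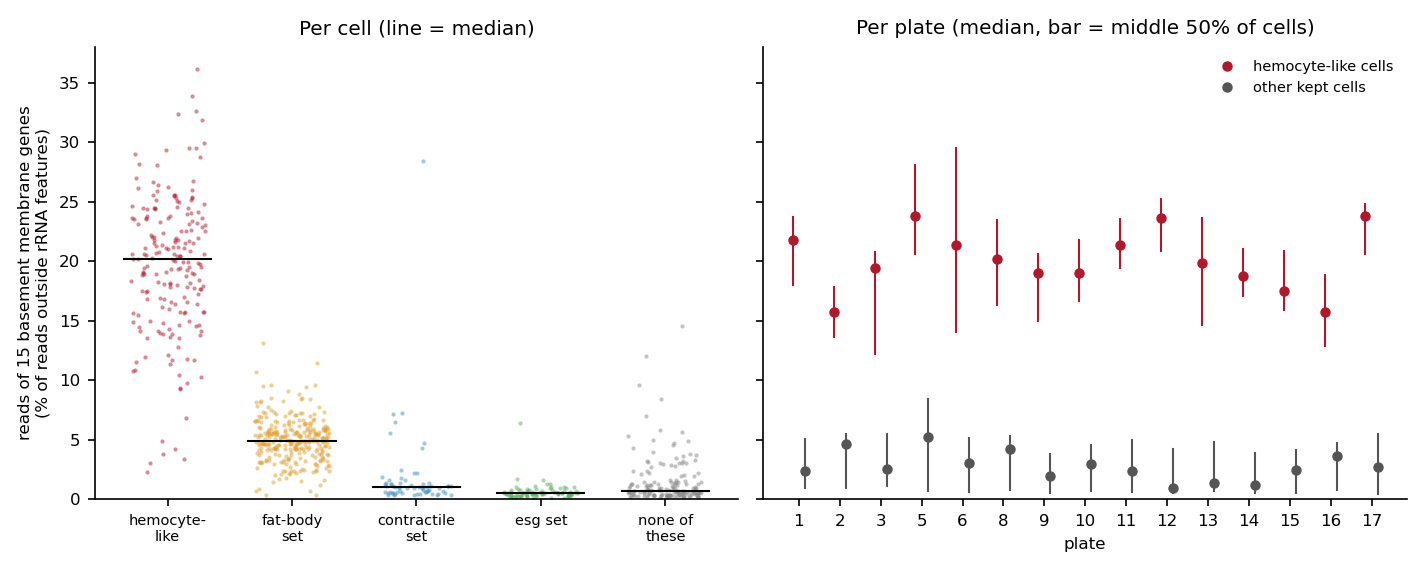
Reads of the 15 basement membrane genes as a percentage of reads outside rRNA features, per cell in 5 sets of cells (left, line at the median) and as plate medians with the middle 50% of cells (right). Hemocyte-like cells had a median of 20.1% and plate medians of 15.7% to 23.8%, above the plate medians of other kept cells on all 15 plates.

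The type IV collagen chain gene Col4a1 (2L, 5029609 to 5037279) ranged from 5845 to 161805 CPM in members with a median of 72446, and from 0 to 101208 CPM in other cells with a median of 5613 (log2 ratio 2.98). Its partner vkg, or Viking (2L, 5012144 to 5028191), had a median of 30475 CPM in members and 2159 CPM in other cells (3.06). Both were detected in every member, and on each of the 15 plates the mean of members was higher. The genes lie head to head, 1418 bases apart. On the length-scaled TPM of the cell files, Col4a1 stood at 2.59 times vkg in the median member (middle 50% of cells 2.36 to 2.82) and at 2.80 times in the other cells with both genes detected (2.32 to 3.35). Against the fat-body set, which also produced both chains, the log2 ratios were 2.09 for Col4a1 and 2.21 for vkg.

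SPARC, a collagen-binding glycoprotein, had a median of 42926 CPM in members and 2668 CPM in other cells (log2 ratio 3.06). On the per-length scale SPARC had the highest level of the list in members, with a median of 33151 TPM, followed by Col4a1 at 7375 TPM, Glt at 5466 TPM and vkg at 2818 TPM. Glt, the matrix protein Glutactin, had a median of 27130 CPM in members and 1429 CPM in other cells (3.22). The laminin chain genes LanA (2.55), LanB1 (2.50) and LanB2 (2.86) were higher by similar amounts, with medians of 171.7, 230.2 and 298.1 TPM in members and 17.4, 28.9 and 21.4 TPM in other cells. wb, which encodes the second laminin alpha chain, was detected in 1 member and 56 other cells (-4.50). Tig, the integrin ligand Tiggrin, had a log2 ratio of 1.88 and a median of 2529 CPM in members and 360 CPM in other cells.

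The modifiers of the matrix divided in the same list. loh, an ADAMTS-like matrix protein, had a median of 2850 CPM in members and 0 CPM in other cells (log2 ratio 5.35), and Mmp1, a matrix metalloproteinase, was detected in 59.1% of members and 22.9% of other cells (2.13). Timp, the inhibitor of these proteinases, reached 10 reads in 1 member and 26 other cells (-4.45), Ndg, or Nidogen, in 2 members and 21.1% of other cells (-4.87), and Mmp2 was at -1.06, or 0.46 against the contractile set alone. trol, the Perlecan gene, was detected in every kept cell, with a median of 6866 CPM in members and 4711 CPM in other cells. Its log2 ratio of 0.09 was positive on 8 of 15 plates, so its level in members was within the spread between plates.

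Of the genes for folding and secretion of collagen, none of 12 compared was higher, 2 were lower (Hsc70-3 -1.67 and Cnx99A -1.68) and the median log2 ratio was -0.58, beside -0.69 for all genes. The count depended on the scaling and the comparison cells: 2 were higher with poscounts size factors and on TPM, 3 against the fat-body set alone, and 6 against the contractile set alone (median 0.997). The collagen-modifying enzyme genes PH4alphaEFB (0.95) and Plod (0.87) and the protein disulfide isomerase gene Pdi (0.92) were closest to the upper threshold, and were positive on 12, 13 and 15 of 15 plates.

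Members also varied among themselves in the matrix genes. Over all members, Col4a1 and vkg had Spearman's rho of 0.85 (0.81 after centring within plates), LanB2 and Glt 0.68 (0.65), Glt and loh 0.64 (0.65), and LanA with Ppn 0.60 (0.62). Idgf2 and Idgf6, described below, had 0.77 (0.74), and Glt with Idgf6 0.66 (0.63). Ppn with Idgf6 was at -0.22 (-0.22) and trol with Idgf6 at -0.43 (-0.38), and trol itself had a rho of -0.45 with the reads per cell. Pxn and Ppn, the genes of the rule, had 0.19 (0.17). These are descriptions over cells that share plates, depth and a common total, in which a higher share of 1 gene lowers the others.

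**Figure D5:**
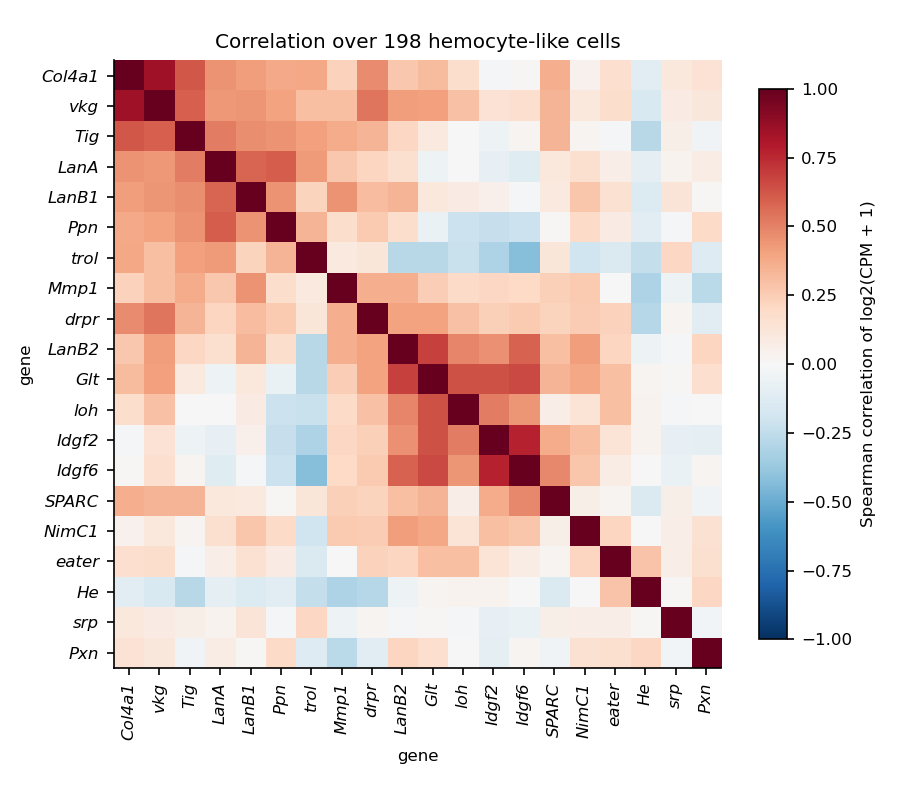
Spearman correlation of log2(CPM + 1) between 20 genes over all hemocyte-like cells, from -1 (blue) to 1 (red). The order of genes was set by hand. Col4a1, vkg, Tig, LanA, LanB1 and Ppn are positive with each other, and so are LanB2, Glt, loh, Idgf2 and Idgf6. The 2 groups are not separate: pairs across them run from -0.23 (Ppn with Idgf2) to 0.42 (vkg with LanB2). trol is negative with the second group, down to -0.43 with Idgf6.

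Chitinase-like growth factor genes of the Idgf family were split as the Nimrods were. Idgf6 had a median of 15907 CPM in members and 530.7 CPM in other cells (log2 ratio 3.07), and Idgf2 a median of 10826 CPM in members and 326.5 CPM in other cells (3.44). The neighbours of Idgf2 on 2L, Idgf1 to its left and Idgf3 to its right, had log2 ratios of 0.33 and -0.15. Idgf4 was detected in 7.07% of members and 58.6% of other cells (-6.30), and Idgf5 in no member and 39.6% of other cells (-6.97). Of the other secreted factors, dpp, the BMP ligand, was detected in 50.5% of members and 6.55% of other cells (2.58), and the adenosine deaminase gene Adgf-A had a log2 ratio of 1.08. The activin-like gene daw (-6.08) and the PVR ligand genes Pvf1 (-4.50) and Pvf3 (-4.48) were lower. In all, 4 of 15 such genes were higher and 8 lower (median -1.35).

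Of the Toll and Imd pathway genes, 3 of 16 were higher, 5 lower and the median log2 ratio was -0.02. Over all genes compared, 6.95% were higher and 41.2% lower. spz, which encodes the Toll ligand Spätzle, had a median of 1080 CPM in members and 0 CPM in other cells (5.07) and was detected in 96% and 10.8% of cells. The receptor gene Tl was detected in 50% of members and 18% of other cells (1.30), and the secreted sensor gene PGRP-SA in 10.6% and 1.31% (3.47). The recognition genes GNBP1 and GNBP3 reached 10 reads in no member. Both antimicrobial peptide genes compared were lower, Drs (-3.94), which was detected in 1.52% of members, and DptB (-2.25), which was detected in none. Against the contractile set alone these ratios were 0.79 and 0.025. The other peptide genes of the list, among them Dro, Mtk and Def, were read from the cell files and reached 10 reads in no member.

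For engulfment and the actin cytoskeleton, 2 of 26 genes were higher, 2 lower and 22 between (median -0.17). Against the fat-body set alone 18 were higher and none lower (median 1.69), and against the contractile set alone 6 were higher and 10 lower (median -0.62). ced-6, the adaptor that binds Draper, had a median of 600 CPM in members and 0 CPM in other cells (log2 ratio 3.11, detected in 87.9% and 31.4%). ena, an actin polymerization factor that acts in cell migration, was detected in 75.8% of members and 18% of other cells (3.47). Act5C was at -1.11, but at 1.76 against the contractile set and 0.86 against the fat-body set. Of the integrin adhesion genes none of 15 was higher and 11 were lower (median -1.50), with stck at -4.14 and mew at -5.40, while the beta subunit gene mys (-0.30) and Rap1 (-0.12) lay between the thresholds. Against the fat-body set alone the integrin list had 2 higher and 5 lower (median 0.43).

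Endosome and lysosome genes had 8 of 23 higher and 2 lower (median 0.24). The count depended on the comparison cells. Against the fat-body set alone 15 were higher and 1 lower, and against the contractile set alone 4 were higher and 5 lower. CtsB1, cathepsin B, had a median of 1087 CPM in members and 0 CPM in other cells (log2 ratio 2.77). The hexosaminidase gene Hexo2 (3.83), the lysosomal membrane gene Cln7 (2.29), the cholesterol carrier gene Npc2a (2.21), Rab7 (1.27), Lamp1 (1.20) and cathD (1.14) were also higher. The vacuolar proton pump, which acidifies these compartments, had none of 16 genes higher and 4 lower (median -0.56), beside 41.2% lower over all genes compared. Against the fat-body set alone 9 pump genes were higher and none lower (median 1.43). The ferritin subunit genes Fer1HCH (1.63) and Fer2LCH (1.74) had medians of 3296 and 3298 CPM in members and 474.2 and 462.5 CPM in other cells, while the antioxidant enzyme genes Sod1 (-1.98), Sod2 (-2.50) and Cat (-2.49) were lower, although Sod1 was at 0.64 against the contractile set alone. In all, 2 of 8 iron and redox genes were higher and 5 lower (median -1.58). Against the contractile set alone the ferritin ratios were 0.89 and 0.85, under the fold of 2.

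The cell cycle genes had 1 of 16 higher and 5 lower (median -0.58), beside 6.95% higher and 41.2% lower over all genes compared. Against the contractile set alone 6 were higher and 4 lower (median 0.46), and against the fat-body set alone 3 and 1 (median 0.44). In the main comparison the higher gene was stg, the Cdc25 phosphatase gene that triggers mitosis (log2 ratio 3.23). Its median was 1068 CPM in members and 0 CPM in other cells, and it was detected in 92.4% and 26.7% of cells. CycB (-2.68) and aurB (-1.62) were lower, but at low levels. Their means were 0.160 and 1.09 CPM in members and 6.45 and 5.43 CPM in other cells. The gene polo was detected in 1.52% of members and 2.29% of other cells. With a pseudocount of 10, no gene of the list was lower. Of the heat shock genes, 8 of 11 were lower and none higher (median -1.37), with Hsp83 in 34.8% of members and 82.5% of other cells and Hsp70Aa in 30.8% and 56.8%. With poscounts size factors 5 heat shock genes were lower (median -0.94). Against the fat-body set alone 5 were lower and 1 higher (median -0.97), and against the contractile set alone 6 were lower (median -1.58).

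Hml, the clotting protein Hemolectin, was found in a minority of members. It reached 10 reads in 44 members (22.2%, interval 16.6 to 28.7) on 14 plates, had 1 to 9 reads in 5 and no read in the others. In the 44 members its level ran from 135.9 to 31079 CPM with a median of 8233. It was detected in 5 other kept cells. The 44 members and the members without Hml detection had medians of 460325 and 498067 reads outside rRNA features, 1676 and 1775 CPM of Pxn, 111.05 and 147.97 CPM of NimC1 and 66139 and 75640 CPM of Col4a1. For He the medians were 66.4 and 36.1 CPM (detected in 70.5% and 57.1%), for srp 531.5 and 482.4 CPM and for stg 1253 and 1039 CPM.

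Of the crystal cell genes, PPO1, PPO2 and lz marked a few members. PPO2, a prophenoloxidase gene, was detected in 7 members and PPO1 in 4, all of which also had PPO2, so that 7 members (3.54%, interval 1.43 to 7.15) and 4 other cells (0.655%, interval 0.179 to 1.67) had either gene. The Runx factor gene lz, which directs the crystal cell fate, was detected in 6 members, 5 of them among the 7. Of the 4 crystal cell genes compared, lz (log2 ratio 1.20) and PPO2 (1.18) were higher and PPO1 (0.13) lay between the thresholds. The remaining gene, peb, was lower (-2.95) and was detected in 3.54% of members and 17.5% of other cells. The member with most PPO2 had 287527 reads of it (239119 CPM), 95675 of PPO1, 1333 of Pxn and 26 of NimC1. NimC1 had no read in 4 of the 7 members and 26 or more in the other 3, and Hml had none in all 7. Outside the rule, 1 kept cell on plate 6 had 626502 reads of PPO2, 303220 of PPO1 and 95 of lz, with 10 or more reads of Pxn and none of Ppn, and 1 on plate 12 had 6230 reads of PPO2 and 2 of Pxn. The rule therefore leaves out cells with crystal cell genes and low Ppn or Pxn. Of the lamellocyte markers, atilla reached 10 reads in no member and 86 other cells, and msn was at -1.52.

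Genes of the other cell types were mostly lower in members. All 15 contractile genes (median log2 ratio -5.47), all 4 fat-body genes (-6.62), all 4 esg progenitor genes (-6.68), all 3 midgut, 3 tendon, 5 heart and nephrocyte and 4 trachea genes compared were lower. The contractile result was partly set by the rule, whose Mhc limit places the whole contractile set among the other cells. Against the fat-body set alone 6 of 15 contractile genes were lower and none higher (median -0.91). Act57B was at 0.36 and Mlc2 at 0.43. That set alone also gave 1 of 3 midgut, 1 of 3 tendon and 2 of 5 heart and nephrocyte genes lower, and 0 of 4 trachea genes. In that comparison 1 heart and nephrocyte gene was higher, and the trachea median was -0.09. With the contractile set alone the lower counts of the midgut, tendon, heart and nephrocyte, and trachea lists were 2, 3, 4 and 2. Some ratios of single genes turned positive, such as Sox100B (1.05) against the contractile set and tup (1.48) against the fat-body set. The summed level had a median of 1.02 CPM (range 0 to 17490) in members and 17.4 CPM in other cells for the contractile genes, and of 0 CPM (range 0 to 2044) and 4811 CPM for the fat-body genes. esg was detected in 1 member, and sna and exex in none. Of 11 neuron genes, 8 were lower and 3 between. Syt1 was detected in 77.8% of members and 83% of other cells, with a median of 45.1 CPM in members and 66.6 CPM in other cells, and no member lacked its reads. elav was detected in 12.6% of members and 42.6% of other cells (2.16% and 29.5% after thinning). brp, a protein of synaptic active zones, was detected in 12.6% of members and 3.93% of other cells (7.57% and 2.95% after thinning), with a log2 ratio of 0.03. The glia list had 3 of 5 genes lower and 1 higher, nrv2 (1.05), the Na/K pump subunit. Of 5 epidermis genes 3 were lower, and grh (0.17) and sinu (-0.99) lay between the thresholds.

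Plate 17 stood apart in contractile reads. Of the 17 members with 10 reads of at least 3 contractile genes, 14 were on plate 17, which held 14 members, so every member there had them, as did 45 of its 47 other kept cells. After thinning, 8 members (4.32%, interval 1.89 to 8.34) and 94 other cells (17.3%, interval 14.2 to 20.8) had at least 3 such genes. Without plate 17 the count was 1 member (0.575%, interval 0.0145 to 3.16) and 64 other cells (12.6%, interval 9.88 to 15.9). The median summed contractile level of members was 1218 CPM on plate 17 and at most 10.9 CPM on any of the other plates. Of the 4 kept cells that had both rule genes but 100 or more Mhc reads, 3 were on plate 17. Without plate 17 the median log2 ratio was -6.84 for the contractile genes, -5.01 for the heart and nephrocyte genes and -4.73 for the midgut genes, against -5.47, -3.85 and -3.51 with it. What gave the contractile reads on this plate was not tested.

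Hox genes, for which primers had been added, were rarely detected in members. After thinning, 2 members (1.08%, interval 0.131 to 3.85) and 28.9% of other cells (interval 25.1 to 32.9) had 10 reads of at least 1 Hox gene. Without thinning the shares were 5.05% in members and 47.3% in other cells. All 6 Hox genes compared were lower (median -4.63). lab, the most anterior of them, was detected in 5 members and 38 other cells, Antp in 3 and 99, Ubx and Abd-B in 1 member each, and Scr and abd-A in no member.

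Isoform use was compared on the estimated counts per transcript, as the mean share of a gene's reads per cell. Of 8529 transcripts of 2193 genes, 73 transcripts of 54 genes differed by at least 30 percentage points between members and other cells (0.856% called). Shares of transcripts that overlap in sequence are estimates. nebu, compared in 62 members, gave 73.4% of its reads to nebu-RB in members and 9.58% in other cells, and 10.99% to nebu-RC in members and 79.96% in other cells, in the same direction on all 11 plates with enough cells. nemy-RA had 78.4% of the reads of nemy in 89 members and 4.86% in 59 other cells, the same direction on 9 of 9 plates. Coq4-RC had 87.7% in 57 members and 25.8% in 59 other cells. bs, the serum response factor gene, gave 5.11% to bs-RA in 53 members and 76.7% in 46 other cells. Further large shifts were seen for Nadk1a-RA (92.6% in 21 members and 17.1% in other cells), Pmi-RE (27.2% in 37 members and 98.3% in 74 other cells), Pmi-RD (66.8% and 0.756%), nrv2-RF (71.6% in 34 members and 6.77% in 56 other cells) and CG7149-RB (27.4% in 24 members and 89.9% in other cells).

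Some genes with a high log2 ratio also differed in isoform. ena-RB took 73.4% of the reads of ena in members and 16.02% in 80 other cells, and LpR2-RB 71.3% of LpR2 in members and 17.3% in 29 other cells. drpr-RB took 51.6% of drpr in members and 20.1% in other cells. trol, whose log2 ratio was 0.09, gave 38.1% of its reads to trol-RAL in members and 11.5% in other cells, which is under the 30-point threshold.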

How the data were processed

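Single cells were profiled by Smart-seq2 in 96-well plates. Per the submitters' processing notes the authors used kallisto 0.43.0, R 3.5.1 and the BDGP6 build. The series table that the authors deposited holds estimated counts of 8862 genes as whole numbers, and the deposited file of each cell holds estimated counts and TPM for every transcript. Which Ensembl release was indexed is not given in the sources used here. Coordinates and the gene of each transcript were taken from the Ensembl annotation of BDGP6. Estimated counts are not molecules, since the libraries carry no molecular identifiers, and intervals cover counting error only.

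Of 837 cells, 809 were kept, of which 198 were members and 611 other cells. Of the other cells, 64 formed the contractile set, 295 the fat-body set and 86 the esg set, and 166 were in none of these. CPM was computed on reads outside 11 features named as rRNA. Genes with 10 reads in at least 5 kept cells were compared (613 higher, 3630 lower), with a pseudocount of 1 and a threshold of 1 on the log2 ratio. Thinning drew 106282 reads per cell without replacement (10th percentile of kept cells), which left 185 members and 543 other cells. Isoform shares used cells with 50 reads of the gene and at least 20 such cells per group. Intervals are exact Clopper-Pearson at 95%. No doublet caller was run. Deposited TPM served for per-length levels and 1 alternative.

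The members and the 29 gene lists (281 of 320 entries in the gene table) were chosen with earlier results of these data known, so no count over a list is a test. Named genes were the 25 with the largest log2 ratio among genes detected in at least 50% of members and positive on every plate with 5 members, the 10 lowest among those detected in 25% of other cells, the given markers, all compared regulators, receptors, soluble Nimrods and basement membrane genes, the 4 most abundant of each other list, the 10 transcripts with the largest shift, and the 5 genes most correlated with Pxn and Ppn. Other genes of a list are named where they passed the threshold or carry a count, and were chosen after their values were seen. The log2 ratio was tested on simulated data before use. Python 3.11.15 with numpy 2.4.6, scipy 1.17.1, pandas 2.3.3 and matplotlib 3.10.9 was used.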

Additional observations from a re-analysis of the deposited data

How the results depend on the processing

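All cells form 1 sample, so no result has a replicate check, and intervals do not cover variation between embryos or pools. No paired analysis was possible because the labels give 1 group and no replicate numbers that pair samples. With the 15 plates weighted equally 3651 genes were lower, against 3630. Levels are shares of each cell's reads, and cells under 106282 reads could not enter the thinned shares. The member share stayed between 23.9% and 25.9% under 9 alternatives to the rule, the filter or the plates. With a pseudocount of 10, 2078 genes were lower in members. With the contractile set as the comparison, 1598 were higher, and with the fat-body set 2084 were higher and 2121 lower. The median log2 ratio of all genes was -0.69 in the comparison reported, -0.46 with poscounts size factors, -0.53 on TPM, -0.48 against the contractile set and 0.06 against the fat-body set. The share of higher genes among all called was 14.4%, against 32.5% and 49.6% with the contractile and fat-body sets. Members with 2 hemocyte markers were 92.4% at 1 read, 18.9% at 50 reads and 82.8% unthinned. Members with a Hox gene were 15.7% at 1 read, 0% at 50 reads and 5.05% unthinned. Members with 3 contractile genes were 9.73% at 1 read, 0.541% at 50 reads, 8.59% unthinned and 0.575% without plate 17. Transcripts past the isoform threshold were 3.04% of those compared at 20 percentage points, 0.234% (20 transcripts) at 50 points and 1.07% (36 of 3368 transcripts) with 200 reads of the gene, against 0.856% (73 transcripts). Of the log2 ratios called in named genes and list genes, 26 changed sign, all under a single comparison set. Ratios between the thresholds also changed sign, among them dome (-0.20), at 0.83 with poscounts size factors and 1.54 against the fat-body set, and so did list medians near 0, such as engulfment, at 0.18 with poscounts size factors, and Toll and Imd, at 0.046 on all reads. Against the fat-body set the integrin median was 0.43. Against the contractile set these were Itgbn 0.17, NimB3 1.85, Mmp2 0.46, Act5C 1.76, Drs 0.79, DptB 0.025, Sod1 0.64, Sox100B 1.05, exex 0.034, Gs2 1.11, Cubn 0.19 and serp 0.73. Against the fat-body set they were Dscam1 0.68, Act5C 0.86, parvin 0.66, peb 0.32, GstD1 0.77, Act57B 0.36, Mlc2 0.43, alphaTry 0.85, sr 0.034, Hand 0.16, tup 1.48, serp 0.41, trh 0.013 and ed 0.97. The causes were not tested beyond the change of comparison cells.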
